A study of Mus musculus with 2 samples.

Results

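The surrogate light chain and V(D)J recombination genes examined here are 10 genes of early lymphocyte development, taken by symbol (GENCODE mouse names matched to Ensembl identifiers) from a table of 43346 Ensembl genes. They are the recombinase genes Rag1 and Rag2, the terminal transferase gene Dntt, the repair kinase gene Prkdc, the surrogate light chain genes Vpreb1, Vpreb2 and Igll1, their relative Vpreb3, the interleukin 7 receptor gene Il7r and the transcription factor gene Lef1. All 10 were found in both libraries. They were measured by total RNA-seq of whole spleens from 2 B6NCrl mouse pups of 1 pregnancy at postnatal day 0, with 1 library per pup made from 10 ng of RNA longer than 200 nt. No transgene, deletion or treatment is named in the labels, and sex was not collected. The labels number pup 2 as replicate 1 and pup 1 as replicate 2. Both samples carry the same donor identifier although their descriptions name separate pups.

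The libraries form 1 group (n = 2), so there is no contrast between conditions and no test of one. What follows gives levels, their order, and how far the libraries of the littermates lay apart. The libraries held 33122187 and 32162543 estimated counts in replicates 1 and 2, of which the 10 genes took 2959 and 3671. All 8 spleen markers, from the organ's transcription factor Tlx1 to globins, were at or above 1 TPM in both libraries. The markers with the highest levels were Hbb-bs at 69452 and 66469 TPM, Hba-a1 at 54366 and 50141, and Alas2, which starts haem synthesis in red cells, at 716 and 710. TPM is transcript abundance per length, scaled to a fixed total per library. The squared differences between the libraries averaged 28.5 times the counting variance per gene, so counting error alone understates the spread. This mean is raised by the most abundant genes, such as the globins, and is not the excess of a typical gene. No such value was computed for genes with counts like those of the 10.

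A developing B cell assembles its antigen receptor genes by V(D)J recombination. The RAG1 and RAG2 proteins cut the DNA at recombination signals, terminal transferase adds bases to the open ends, and the end joining machinery with the DNA-dependent protein kinase (Prkdc) closes them. The heavy chain is built first and is displayed with a stand-in light chain, made of a VpreB protein and lambda5 (Igll1), together with the signalling chains CD79a and CD79b. This pre-B receptor, with interleukin 7 signals, drives expansion of the precursors. In mice the spleen hosts blood cell formation around birth, B lymphopoiesis included.

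Vpreb3, Igll1 and Vpreb1 had the highest levels of the 10 genes, and the recombinase genes and Dntt the lowest. Vpreb3 was at 42.7 ± 9.44 TPM (SD, n = 2, as for all means below), Igll1 at 24.1 ± 7.68 and Vpreb1 at 18.2 ± 4.72. Prkdc at 3.20 ± 0.219, Il7r at 3.11 ± 0.672, Vpreb2 at 2.50 ± 1.16 and Lef1 at 2.44 ± 0.580 formed a middle group. Rag1 was at 1.08 ± 0.403, Rag2 at 0.960 ± 0.0283 and Dntt at 0.320 ± 0.198. In this order the library values of neighbours overlapped for Igll1 and Vpreb1, for Prkdc and Il7r, for Il7r and Vpreb2, for Vpreb2 and Lef1, and for Rag1 and Rag2, so their ranges over the libraries do not separate these neighbours. Within each library, however, Igll1 was above Vpreb1, at 1.25 and 1.37 times its level, and Il7r above Vpreb2, at 1.57 and 1.08 times, while the order of the other 3 pairs changed between the libraries. They did not overlap between Vpreb3 and Igll1, Vpreb1 and Prkdc, Lef1 and Rag1, or Rag2 and Dntt. Among protein-coding genes ranked by mean TPM, 88.7% lay below Vpreb3, 81.3% below Igll1, 77.3% below Vpreb1, 43.8% below Rag1 and 36.5% below Dntt. Of the 10 genes, 7 reached 1 TPM in both libraries (all but Rag1, Rag2 and Dntt), beside 31.0% of all genes. That share covers noncoding genes and pseudogenes too, and it was not computed for protein-coding genes alone. In whole tissue a low level from few expressing cells and a low level from little RNA per cell cannot be told apart.

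**Figure D1:**
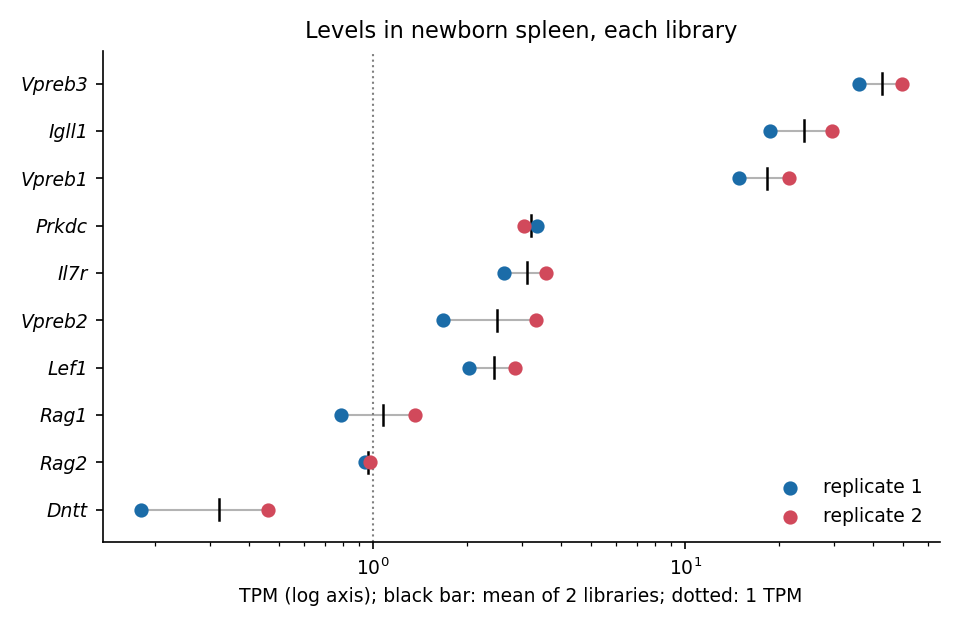
TPM of each gene (log axis) in replicate 1 and replicate 2, with the mean of the 2 libraries as a black bar and 1 TPM as a dotted line. The genes span from 0.180 TPM for Dntt in replicate 1 to 49.4 TPM for Vpreb3 in replicate 2, and Rag1 lies on either side of 1 TPM.

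The bases upstream of the most abundant members and of Vpreb2 are shown first, because Vpreb1, Vpreb2 and Igll1 encode parts of one complex and Vpreb1 and Vpreb2 are near-identical copies. They are RefSeq promoter windows on GRCm38.p6, cut before the annotated start, written 5′ to 3′ on the gene's strand. Positions count from the start, with the base just before it as -1. Capitals mark E-boxes (CANNTG, bound by E proteins such as that of Tcf3) and the core bound by EBF1 (CCCNNGGG). Igll1 is read from chr16:16863986-16864235 (minus strand), Vpreb1 from chr16:16869256-16869505 (minus strand), Vpreb2 from chr16:17980315-17980420 (plus strand) and Vpreb3 from chr10:75948050-75948299 (plus strand).
Igll1: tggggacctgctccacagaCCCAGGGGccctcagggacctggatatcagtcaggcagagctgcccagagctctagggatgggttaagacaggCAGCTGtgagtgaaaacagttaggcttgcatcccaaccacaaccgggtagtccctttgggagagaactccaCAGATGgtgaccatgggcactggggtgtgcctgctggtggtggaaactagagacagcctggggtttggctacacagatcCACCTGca
Vpreb1: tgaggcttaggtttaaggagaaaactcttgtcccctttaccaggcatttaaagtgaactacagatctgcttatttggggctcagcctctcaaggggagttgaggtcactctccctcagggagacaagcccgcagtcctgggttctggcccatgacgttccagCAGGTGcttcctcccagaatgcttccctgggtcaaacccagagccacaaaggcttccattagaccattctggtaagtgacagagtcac
Vpreb2: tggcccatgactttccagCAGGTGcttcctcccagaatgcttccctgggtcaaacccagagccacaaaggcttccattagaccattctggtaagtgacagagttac
Vpreb3: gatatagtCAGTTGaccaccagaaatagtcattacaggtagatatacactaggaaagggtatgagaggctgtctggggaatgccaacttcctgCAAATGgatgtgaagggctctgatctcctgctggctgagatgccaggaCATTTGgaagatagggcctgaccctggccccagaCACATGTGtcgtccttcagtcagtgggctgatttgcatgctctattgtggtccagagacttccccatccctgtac

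The 106 bases printed for Vpreb2 align without a gap to the last 106 bases printed for Vpreb1, with 2 substitutions, G12T and C104T, written with the Vpreb1 base first and counted from 1 at the first aligned base. The same E-box lies at -88 in Vpreb1 and in the aligned stretch of Vpreb2. The RefSeq start of Vpreb2 lies further downstream in the copied stretch than that of Vpreb1, by 144 bases. RefSeq windows of 300 bases (250 before to 50 after the start) were found for 9 of the 10 genes, all but Prkdc, and both strands were searched. An EBF core was in 1 of the 9, Igll1 at -231, and in 13.7% of 32851 mouse promoters. All 9 held an E-box, beside 72.3% of promoters. A STAT site (TTCNNNGAA) was in the window of Il7r at -142 (8.30% of promoters), and a forkhead site (TGTTTNC) in those of Igll1 and Lef1 (20.5%). A TATA box (TATAAA) was in 1 of the 4 windows of Lef1 (13.6%). The TCF/LEF core (CTTTGNT) was in none of the 9, beside 18.6% of promoters. No overlapping motif was removed, and a match describes letters only.

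Igll1 (ENSMUSG00000075370.6, chromosome 16, 16860671 to 16863985, minus strand, mm10 as for all coordinates below) encodes lambda5, the constant-like part of the surrogate light chain. It was at 18.7 TPM in replicate 1 and 29.5 in replicate 2, from 458 and 664 counts. Vpreb1 (ENSMUSG00000059305.6, chromosome 16, 16868403 to 16870843, minus strand), which encodes the variable-like part, was at 14.9 and 21.6 TPM, from 312 and 426 counts. Both genes were thus higher in replicate 2. They lie 4417 nt apart on the same strand. Vpreb2 (ENSMUSG00000059280.3, chromosome 16, 17980428 to 17981273, plus strand), the second VpreB copy, lies 1109584 nt from Vpreb1 and was at 1.68 and 3.32 TPM, from 17.5 and 32.6 counts. The highest Vpreb2 value stayed below the lowest Vpreb1 value.

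The coding sequences of Vpreb1 and Vpreb2 are 429 nt each and differ at 9 bases (97.9% identity). Of the 330 stretches of 100 bases in the Vpreb2 coding sequence, 97 (29.4%) also occur in the Vpreb1 transcript, so reads there can be divided between the copies only by estimation. The authors' deposited posterior SD of the count was the same for both copies, 2.72 counts in replicate 1 and 3.65 in replicate 2. It is small beside the Vpreb1 count, and a larger part of the Vpreb2 counts of 17.5 and 32.6. Vpreb2 made up 10.1% and 13.3% of the summed TPM of the copies, and 5.31% and 7.09% of their summed counts. The deposited Vpreb2 model is 429 nt long, the coding length alone, while the Vpreb2 transcript of GENCODE M21 is 759 nt and that of Vpreb1 766 nt. The TPM of Vpreb2 therefore rests on a length without untranslated ends, and its share of the VpreB pool on the TPM scale is the higher of both scales. Reads from those ends have no place in the 429 nt model. How far this lowers the Vpreb2 share of counts was not tested, and the posterior SD does not cover it.

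Summed over Vpreb1, Vpreb2 and Igll1, surrogate light chain transcripts reached 35.2 and 54.4 TPM. The VpreB sum over Igll1 was 0.889 and 0.843, so the parts of the complex stood in nearly the same proportion in both pups. The sum equalled 51.5% and 55.9% of the level of Ighm, the mu heavy chain constant gene, and 36.3% and 38.7% of Igkc, the kappa light chain constant gene. It equalled 97.1% and 109% of Cd79a, which encodes a signalling chain of the pre-B and B cell receptors. These ratios moved far less between the libraries than the sum itself did.

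Vpreb3 (ENSMUSG00000000903.3, chromosome 10, 75943057 to 75949657, plus strand) encodes a VpreB-like protein of B lineage cells that is retained inside the cell with immunoglobulin chains. It was at 36.0 and 49.4 TPM, from 598 and 773 counts, and so again higher in replicate 2. It equalled 99.3% and 98.9% of Cd79a. Its level was 2.42 and 2.29 times that of Vpreb1.

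Rag1 (ENSMUSG00000061311.6, chromosome 2, 101638282 to 101649501, minus strand) encodes the catalytic subunit of the recombinase. It was at 0.790 TPM in replicate 1 and 1.36 in replicate 2, from 163 and 263 counts. Rag2 (ENSMUSG00000032864.4, chromosome 2, 101624718 to 101632529, plus strand), which encodes the obligatory partner, was at 0.940 and 0.980 TPM, from 81 and 76.2 counts. Rag1 was the lower of the pair in replicate 1 and the higher in replicate 2, with a Rag1 to Rag2 ratio of 0.840 and 1.39 on the TPM scale. The deposited bounds of the TPM estimates, whose level the sources used here do not give, overlapped for the pair in replicate 1 (0.666 to 0.905 for Rag1, 0.688 to 1.196 for Rag2) and also in replicate 2 (1.18 to 1.5 for Rag1, 0.709 to 1.26 for Rag2). The genes face each other with their 3′ ends 5752 nt apart.

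Both recombinase genes lie within the span of B230118H07Rik (chromosome 2, 101560781 to 101649532, minus strand), which runs on the strand of Rag1 and opposite to Rag2. That gene was at 21.1 and 20.4 TPM, far above either. Its scaled counts in replicate 2 were 0.885 times those in replicate 1 (0.779 to 1.01), beside 1.55 for Rag1 and 0.902 for Rag2. The part of B230118H07Rik reads in the Rag1 and Rag2 values was not tested, and the sources used here do not say whether counting used strand. The overlap of Vpreb1 with Top3b on the opposite strand (chromosome 16, 16870736 to 16892990; 31.4 and 33.9 TPM) starts beyond the main Vpreb1 transcript, Vpreb1-201, which ends at 16869255.

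Dntt (ENSMUSG00000025014.8, chromosome 19, 41029275 to 41059525, plus strand) encodes terminal transferase, which adds untemplated bases at the junctions and is known to be scarce in fetal B lymphopoiesis of mice. It had 11 counts in replicate 1 and 27 in replicate 2, which gave 0.180 and 0.460 TPM. Both libraries were low, and both above a count of 3, the limit that a count of 0 allows. Dntt was the only member under a mean count of 20, the minimum set for comparing libraries.

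Prkdc (ENSMUSG00000022672.8, chromosome 16, 15637866 to 15842235, plus strand) encodes the catalytic subunit of the DNA-dependent protein kinase, which acts in all cells that repair breaks by end joining. It was at 3.35 and 3.04 TPM, from 855 and 805 counts, the only gene of the 10 that was lower in replicate 2 on both the TPM and the scaled count scale. Of the 18 genes of a list for end joining and the DNA break response, Prkdc included, 18 reached 1 TPM in both libraries. The highest were Hmgb1 (779 ± 26.4 TPM) and Hmgb2 (532 ± 44.0), DNA-bending proteins that assist RAG binding among other roles, and H2afx (242 ± 4.16), the histone variant marked at breaks. Xrcc6, which encodes Ku70, a subunit of the Ku complex that recruits the kinase, was 13.0 and 13.5 times the gene level of Prkdc. That Prkdc level includes its retained intron model. Lig4, the ligase that seals the joints, was at 1.12 and 1.40 TPM, and Dclre1c, the nuclease that opens the hairpins, at 5.51 and 7.06. Lig4 was thus below Prkdc and Dclre1c above it in both libraries.

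Il7r (ENSMUSG00000003882.4, chromosome 15, 9505788 to 9530176, minus strand) encodes the alpha chain of the interleukin 7 receptor. It was at 2.63 and 3.58 TPM, from 258 and 331 counts, and was higher in replicate 2. Its partner chains were higher than Il7r itself: Il2rg, the common gamma chain, at 6.19 and 6.62 times its level, and Crlf2, the chain that pairs with Il7r in the TSLP receptor, at 5.91 and 5.73 times. The ligand genes were low, with Il7 at 0.270 and 0.560 TPM and Tslp at 0.740 and 1.14 TPM. Of the 13 genes of the interleukin 7 pathway list, 11 reached 1 TPM in both libraries, and these ligands were the others. The highest were Jak1 (54.6 ± 6.29 TPM), a kinase of the receptor, Mcl1 (47.3 ± 0.516), a survival factor, and Stat5b (22.6 ± 1.96), the factor the receptor activates.

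Lef1 (ENSMUSG00000027985.10, chromosome 3, 131110471 to 131224356, plus strand) encodes a DNA-binding factor of the Wnt pathway that is made in B cell precursors and T cells. It was at 2.03 and 2.85 TPM, from 205 and 273 counts, and was higher in replicate 2. Of 8 genes in a list of Lef1 and its partners, 7 reached 1 TPM in both libraries, all but Axin2 at 0.690 and 0.730 TPM. The highest were Ctnnb1 (75.3 ± 6.98 TPM), which encodes beta-catenin, the related factor Tcf7l2 (23.1 ± 2.23) and the corepressor gene Tle3 (12.02 ± 2.43). Tcf7, the relative of Lef1 best known from T cells, was at 1.82 and 2.82 TPM.

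Transcript estimates were even for some members and split for others. Rag1, Il7r and Vpreb2 have 1 transcript each in the tables, Vpreb3-201 held 99.5% and 99.6% of the TPM of Vpreb3, and Vpreb1-201 held 95.4% and 94.2% of that of Vpreb1. For Igll1, Igll1-201 held 54.0% and 61.8%, and a shorter model of 702 nt that has no entry in GENCODE M21 held 40.2% and 34.8%. By counts the shares were 53.4% and 63.0% for Igll1-201 and 31.1% and 27.7% for the shorter model. Igll1-201 had 245 and 418 counts (deposited posterior SD 30.6 and 38.1). The shorter model had 142 and 184 (posterior SD 29.8 and 37.8). For Rag2, Rag2-201 held 62.8% and 55.1% of the TPM but 76.4% and 69.9% of the counts, and Rag2-202 the rest. Rag2-202 had 19.1 and 22.9 counts (posterior SD 8.77 and 8.9), so the Rag2 split is uncertain. All Dntt counts were assigned to Dntt-202 in both libraries, while the posterior mean TPM gave Dntt-202 55.0% and 56.3% and Dntt-201 the rest, so these 2 models were not separated.

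The shares also differed with the measure used for Prkdc, between TPM and counts, and for Lef1, between TPM and posterior mean. The full-length Prkdc-201 of 12647 nt held 53.7% and 61.8% of the TPM but 83.1% and 87.4% of the counts, and the retained intron model Prkdc-202 of 3063 nt held 46.3% and 38.2% of the TPM but 17.0% and 12.7% of the counts. Lef1-201 held 84.7% of the Lef1 TPM in replicate 1 and 52.8% in replicate 2, and Lef1-202 held 0% and 36.6%. Their counts were 183 and 151 for Lef1-201 (deposited posterior SD 32.5 and 48.2), and 0 and 102 for Lef1-202 (posterior SD 26.7 and 45.8). On the posterior mean scale Lef1-201 held 48.4% and 42.5% and Lef1-202 held 15.5% and 33.2%, so the split between them depends on the estimate used. The retained intron model Lef1-206 held 11.4% and 8.45% of the TPM.

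**Figure D2:**
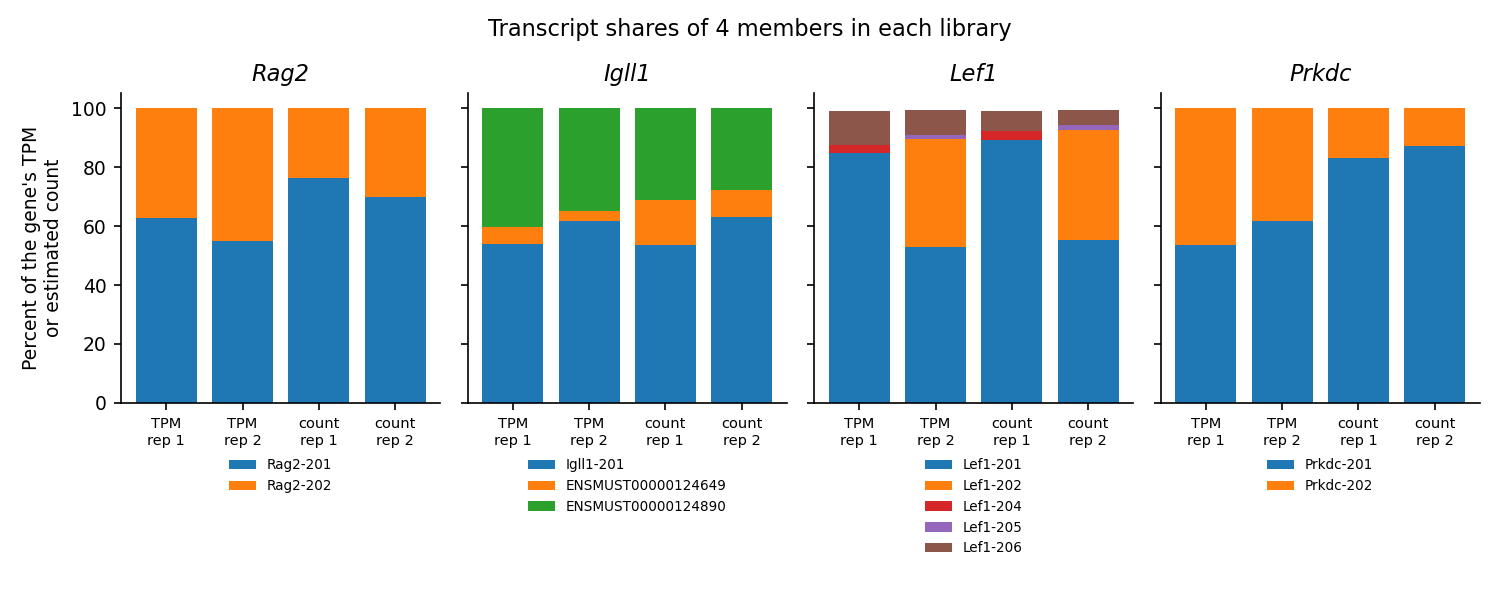
Percent of each gene's TPM (first 2 bars) and of its estimated count (last 2 bars) held by each transcript of Rag2, Igll1, Lef1 and Prkdc in replicates 1 and 2, without transcripts under 1% in every bar. Prkdc-201 takes 53.7% of TPM but 83.1% of counts in replicate 1, and Lef1-202 is at 0% in replicate 1 and 36.6% of TPM in replicate 2.

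Most of the genes were higher in replicate 2. The difference is given as TMM-scaled counts in replicate 2 over replicate 1, with an exact 95% interval that covers counting error only. With 1 library per pup there is no replicate check of it, and intervals of this kind are too narrow for a difference between animals. The ratio was 1.55 for Rag1 (1.27 to 1.90), 1.39 for Igll1 (1.24 to 1.57), 1.31 for Vpreb1 (1.13 to 1.52), 1.28 for Lef1 (1.06 to 1.54), 1.24 for Vpreb3 (1.12 to 1.39) and 1.23 for Il7r (1.05 to 1.46). It was 1.76 for Vpreb2 with an interval that spans 1 (0.964 to 3.32). Prkdc was lower in replicate 2, at 0.905 (0.821 to 0.998), and Rag2 was at 0.902 with an interval that spans 1 (0.651 to 1.25). The Prkdc ratio sums its full-length and retained intron models, and none was computed for Prkdc-201 alone. On the deposited TPM scale, which moves the median of all genes by 0.13 (log2), Rag2 turned to 0.06 in favour of replicate 2. Dntt, under the count minimum, had a ratio of 2.36 (1.13 to 5.27).

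**Figure D3:**
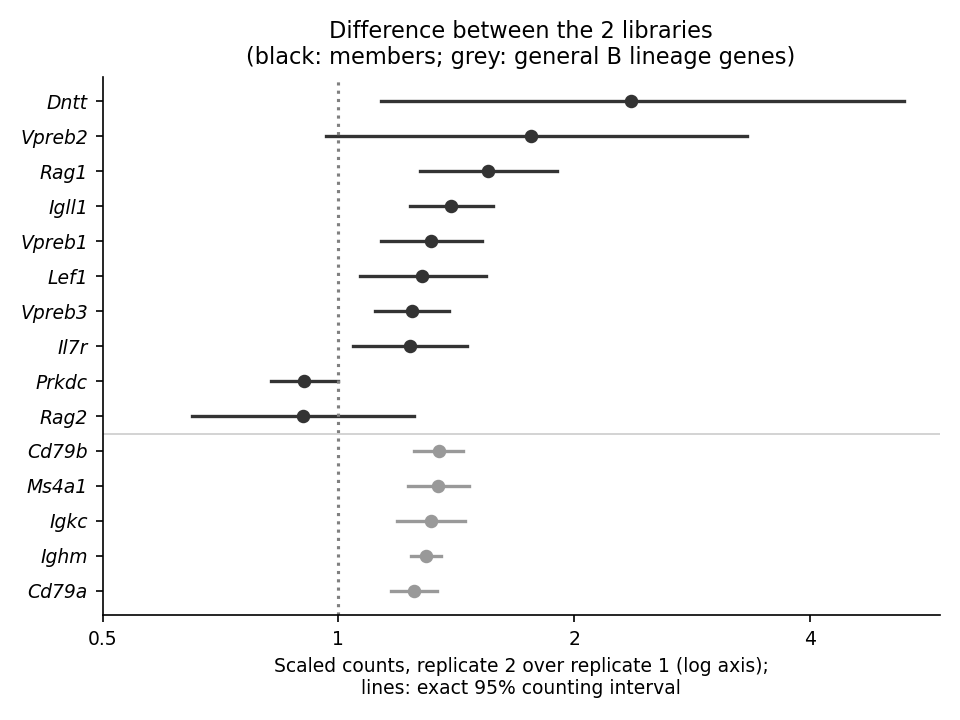
Scaled counts in replicate 2 over replicate 1 (log axis) for the 10 genes (black) and 5 chosen general B lineage genes (grey), with lines for the exact 95% counting interval. The grey genes are Cd79a, Cd79b, Ighm, Igkc and Ms4a1. Prkdc and Rag2 lie below 1, and the grey genes lie between 1.25 for Cd79a and 1.34 for Cd79b. That range holds for these 5 only, and other B lineage genes lie outside it.

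Of the 9 members at or above the count minimum, 7 were higher in replicate 2, with a median log2 ratio of 0.35 beside 0.01 over all 15506 genes compared. None of the 9 was 2-fold higher in replicate 2, beside 0.903% of genes. At 1.5-fold, 2 of the 9 were higher (Rag1 and Vpreb2), beside 4.57% of genes. The counting interval lay above 1 for 6 of the 9 (Rag1, Vpreb1, Vpreb3, Igll1, Il7r and Lef1), beside 23.5% of genes, and below 1 for 1 of the 9 (Prkdc), beside 25.3%. The counts of members are small, and they describe these libraries only.

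Several general B lineage genes differed in the same direction. The ratio was 1.25 for Cd79a (1.17 to 1.33), 1.34 for Cd79b (1.25 to 1.44), 1.29 for Ighm (1.24 to 1.35) and 1.31 for Igkc (1.19 to 1.45). It was higher for Iglc2, at 1.87 (1.36 to 2.60). The interval spanned 1 for Pax5 at 1.05 (0.632 to 1.75), Ighd at 1.07 (0.904 to 1.28) and Cd22 at 1.13 (0.936 to 1.38). In the list of later B cell markers given below, 8 of 11 intervals lay above 1 and 0 below. Of 12 genes in a list of the pre-B receptor complex and its signalling, 11 reached 1 TPM in both libraries, all but Zap70 at 0.350 and 0.510 TPM. For 10 of the 12 the interval lay above 1 and for 0 below it, with a median log2 ratio of 0.34. Its highest members were Ighm (82.9 ± 20.5 TPM), Cd79b (46.2 ± 12.6) and the kinase gene Lyn (43.5 ± 9.97). Scaled to the counts of Cd79a in each library, a comparison added after the data were seen, the median log2 ratio was 0.04 for the 9 genes and -0.31 for all genes compared. That scaling lowers all ratios by 0.32 (log2), because Cd79a itself is higher in replicate 2, so the lower value for the 9 genes follows from the scaling.

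The pathway lists of the other members lay closer to the median of all genes. For the end joining list, Prkdc included, the median log2 ratio was -0.10, with 2 of 18 intervals above 1 and 8 below. For the interleukin 7 pathway with Il7r it was 0.14, with 7 of 13 above and 2 below. For Lef1 and its partners it was 0.11, with 5 of 8 above and 0 below.

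Other parts of the tissue moved as well. The red cell genes were lower in replicate 2, at 0.867 for Hbb-bs (0.864 to 0.869) and 0.830 for Hba-a1 (0.827 to 0.832), while Tlx1 was higher at 1.41 (1.29 to 1.53) and Tcf21, a factor of the spleen stroma, at 1.08 (1.03 to 1.13). The part of red cell RNA in the differences of the 10 genes was not tested.

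The markers of B cell stages give the setting of these levels. Of 16 B lineage regulators, 14 reached 1 TPM in both libraries, all but Pax5 at 0.870 and 1.41 TPM and Irf4 at 0.560 and 0.710. The highest were Id3 (109 ± 21.2 TPM), an inhibitor of E proteins, the E protein gene Tcf3 (72.9 ± 0.453) and Spi1 (49.4 ± 10.6), which encodes PU.1 and is also made in myeloid cells. The median log2 ratio of the regulators was 0.17, with 8 of 16 intervals above 1 and 4 below. Ebf1, whose factor is known to act on the promoters of Igll1 and Vpreb1, was at 3.96 and 6.13 TPM. Of 14 markers used for early B progenitors, 12 reached 1 TPM in both, all but Arpp21 at 0.920 and 1.42 TPM and Il2ra at 0.0600 in each library (5 and 8 counts). Il2ra encodes CD25, which marks small pre-B cells in mice. The highest were Cd24a (746 ± 89.8 TPM), which red cell precursors also make, Kit (22.1 ± 3.92) and Spn (17.4 ± 1.15), which other progenitors share. The median log2 ratio of these markers was 0.23.

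Of 12 measured markers of later B cells, 10 reached 1 TPM in both, all but the receptor genes Cr2 (0.540 and 0.550 TPM) and Fcer2a (0.160 and 0.240), which mark mature B cells. The highest were Cd74 (145 ± 33.98 TPM), which other antigen presenting cells make too, Igkc (119 ± 30.7) and Cd37 (69.3 ± 10.1). The summed level of the list was 317 and 439 TPM. Its median log2 ratio was 0.34, with 8 of 11 intervals above 1 and 0 below.

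Several of the 10 genes are also made outside the B lineage. Rag1, Rag2, Dntt and Lef1 are known from thymocytes, Il7r from T cells and innate lymphoid cells, and Prkdc from most cells. Of 14 thymocyte and T cell markers, 6 reached 1 TPM in both libraries, with a summed level of 25.3 and 34.2 TPM. The highest were Trbc2 (7.70 ± 2.25 TPM), Lck (6.60 ± 0.262) and Trbc1 (3.84 ± 1.00). Ptcra, the pre-T receptor chain that defines early thymocytes, had 10 and 3 counts, or 0.270 and 0.0900 TPM, under the count minimum and with a ratio interval that spans 1 (0.0510 to 1.12). The others below 1 TPM in at least 1 library were Cd3e, Cd4, Cd8a, Cd8b1, Bcl11b, Thy1 and Trac, from 0.0800 TPM for Bcl11b in replicate 1 to 1.18 TPM for Trac in replicate 2. Like most of the 10 genes, 8 of the 9 T cell markers at or above the count minimum were higher in replicate 2, with a median log2 ratio of 0.50 and 4 intervals above 1 and 0 below. Of 9 innate lymphoid markers, 5 reached 1 TPM in both, with a summed level of 158 and 218 TPM, most of it from Id2 (148 ± 31.7 TPM), followed by Ltb (26.8 ± 7.35) and Il1rl1 (8.52 ± 2.39). The median level of the list was 1.34 TPM, so the sum mainly reports these highest genes. Il23r, Cxcr5, Tnfsf11 and Zbtb16 were below 1 TPM in at least 1 library, and Il23r had 4 counts and 1 count. The median log2 ratio of the innate lymphoid list was 0.44, with 4 of 7 intervals above 1 and 0 below. The part of T cells and innate lymphoid cells in the levels and differences of Rag1, Rag2, Dntt, Il7r and Lef1 was not tested.

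Thymus also holds recombinase transcripts, and markers of thymic epithelium were therefore read in the same libraries. Foxn1 and Psmb11, which define that epithelium, had 0 counts in both libraries, which allows up to 3 counts in each. Krt5 was at 0.0900 and 0.0500 TPM and Aire at 0.0600 and 0.0400. The other 2 of the 6, Ccl25 (4.6 ± 0.325 TPM) and Prss16 (1.79 ± 0.481), reached 1 TPM in both libraries, and the summed level of the list was 5.97 and 7.05 TPM. The ratio was 1.67 for Prss16 (1.18 to 2.39) and 1.04 for Ccl25 (0.784 to 1.38). The part of thymus RNA in the Rag1, Rag2 and Dntt values was not tested.

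**Figure D4:**
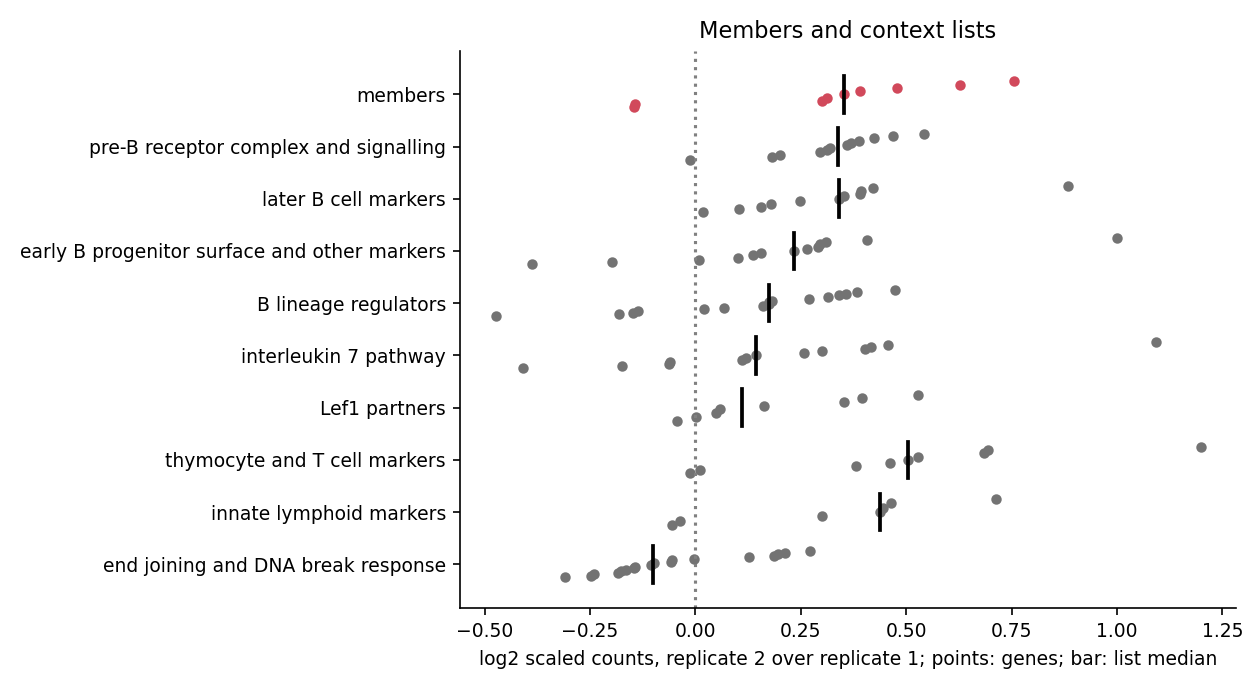
Log2 ratio of scaled counts, replicate 2 over replicate 1, for each gene at or above the count minimum of 20 in the 10-gene set (coloured) and in 9 context lists (grey), with the list median as a bar. The median is 0.35 for the 10-gene set, 0.34 for the pre-B receptor list, 0.34 also for later B cell markers and -0.10 for end joining genes, the only median of these below 0.

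The genes with the most similar levels were taken among 13613 protein-coding genes by the distance of log2 TPM over the 2 libraries, a likeness that rests on 2 values each. Nearest to Vpreb1 were Vav1 (14.8 and 21.5 TPM), Trip6 and Plec. Nearest to Igll1 were Pld4 (18.8 and 28.9 TPM), Spic and Ptgs1. Nearest to Rag1 were Nanos3 (0.8 and 1.33 TPM), Gfra1 and Ly75. Their distances were at most 0.07 (log2).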

How the data were processed

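Total RNA-seq libraries of 2 newborn mouse spleens were analysed, grouped and numbered by the labels. Per the labels the build is mm10. The authors deposited a table of genes and one of transcripts per library, and the listing text of the samples names GENCODE M4. Columns follow the layout of RSEM, while aligner and versions were not given in the sources used here. Expected counts, as the authors deposited them, are estimates that divide reads matching several features. The deposited TPM values were normalized by the authors for effective length and library total. Posterior SDs of counts, posterior mean TPM and bounds were deposited by the authors too. No source used here says whether strand was used in counting.

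Gene names and coordinates came from GENCODE M21 (42462 of 43346 genes matched) and promoter windows from RefSeq. Levels are the deposited TPM. Detection means at least 1 TPM in both libraries. Ratios used rounded expected counts with TMM scaling (edgeR 4.0.16 in R 4.3.3), with a prior count of 2 for log2 values, a mean count of at least 20, and exact (Clopper-Pearson) 95% intervals. Such intervals cover no more than counting error, as PCR copies cannot be told from separate molecules here. Spike-ins were left out and held 0.00210% and 0.00233% of counts. The ratio step was tested on simulated counts with counting error only, which cannot test the intervals against differences between animals. Other steps used Python 3.11.15, Biopython 1.88, scipy 1.17.1, numpy 2.4.6, pandas 2.3.3 and matplotlib 3.10.9. DESeq2 1.42.0 gave another scaling.

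The 10 genes and the context lists were chosen with earlier results of these data known. Prkdc, Il7r and Lef1 also stand in the context lists of their pathways. The genes named are the 10, the 3 highest of each list, list members below 1 TPM in either library, transcripts with at least 10% of a gene's TPM, and the 3 genes nearest to Vpreb1, Igll1 and Rag1. Xrcc6, Lig4, Dclre1c, Il2rg, Crlf2, Tcf7, Ebf1, Cd79a, Ms4a1, Iglc2, Ighd, Cd22, Tlx1, Tcf21 and genes overlapping members were named after their values were seen. Iglc1 had no match and was not analysed here, proteins were not analysed here, and 2 genes of the context lists are not reported here and were left out of the list counts. Alternatives tried were posterior mean TPM and counts, other denominators, thresholds, scalings, prior counts and filters, shares of counts, and each library alone.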

Additional observations from a re-analysis of the deposited data

How the results depend on the processing

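With a threshold of 5 TPM in place of 1, 3 of the 10 genes were detected in both libraries in place of 7, and in either library alone at 1 TPM 7 to 8 were. The surrogate light chain sum ranged from 35.2 to 54.4 TPM with each library alone. With no filter on counts 1 gene (Dntt) was at least 2-fold apart in place of 0, and at 1.5-fold 2 were. Scaled to Cd79a counts, chosen after seeing the data, the median log2 ratio of the members went from 0.35 to 0.037 by construction, since Cd79a is itself higher in replicate 2, and Vpreb3 (-0.0061) and Il7r (-0.017) changed sign. Under DESeq2 size factors, library size, spike-in totals and deposited TPM that median was 0.30 to 0.49, and Prkdc was lower in replicate 2 under each. Rag2 was lower under all of these but deposited TPM. Of 24 transcript shares recomputed from counts or posterior means, 11 moved by more than the spread of the libraries. Single-gene TPM moved by more than 1 SD in 2 of 30 alternatives, Rag2 and Prkdc with TPM over protein-coding genes, not counting each library alone, which cannot pass that limit with n = 2. Log2 ratios of single genes left their counting interval or changed sign in 8 of 80, 7 of them with the Cd79a scaling. The other was Igll1, at 0.66 with deposited TPM in place of 0.48. List counts moved by over 1.5 times in 2 of 22. No paired analysis was possible because the design has 1 group. Depth limits Dntt (11 and 27 counts) and Vpreb2 (17.5 and 32.6 counts) most.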
